A study of Mus musculus with 6 samples.

Results

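The 8 genes described here encode the ligands, receptors and co-receptors of the vascular endothelial growth factor (VEGF) system and were taken by name from the deposited gene table. They comprise the ligand genes Vegfa, Vegfb, Vegfc and Pgf, the receptor tyrosine kinase genes Flt1 (VEGFR1) and Kdr (VEGFR2), and the neuropilin co-receptor genes Nrp1 and Nrp2. All 8 were among the 55401 genes of the table and all 8 were among the 18438 genes with enough counts to be tested. Bulk RNA sequencing was performed on endothelial cells (EC) sorted as CD31+CD45- from kidneys of 3 CTRL and 3 RbpjΔEC mice, with 1 library per sample. RbpjΔEC mice carried 1 copy of the tamoxifen-inducible Cdh5CreERT2 transgene and floxed Rbpj alleles (Rbpjf/f). CTRL mice were Cre-negative littermates (Cre -/-) that also carried Rbpjf/f. Both groups received tamoxifen as 5 doses of 1.5 mg at 8 weeks of age, kidneys were taken 12 weeks after induction, and the labels give an age of 21 weeks. Cdh5 is active throughout the endothelium, so deletion was not directed to one vessel type. Because CTRL mice lacked Cre, an effect of Cre itself in tamoxifen-treated animals cannot be told apart from an effect of Rbpj deletion. The study reports tertiary lymphoid structures and focal fibrosis in RbpjΔEC kidneys, and heart failure that develops in these mice. Effects of such disease on EC cannot be told apart from a direct effect of Rbpj deletion either.

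VEGF ligands are secreted dimers that bind receptor tyrosine kinases on EC. VEGF-A binds both FLT1 and KDR, with KDR carrying most of the mitogenic and permeability signal and FLT1 acting largely as a high-affinity trap, whereas VEGF-B and PlGF bind FLT1, and VEGF-C binds FLT4 and, once processed, KDR. Neuropilins hold VEGF in complex with these receptors and also bind class 3 semaphorins. In the kidney, podocytes and tubule cells are the main known source of VEGF-A, and the fenestrated endothelium of glomeruli and peritubular capillaries depends on it. RBPJ is the DNA-binding partner of the Notch receptors, and in sprouting vessels Notch signalling is known to restrain the response to VEGF.

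Libraries held 39649171 to 47726850 gene counts, and the 8 genes together took 1.32% to 1.38% of all counts in CTRL and 1.15% to 1.19% in RbpjΔEC. The EC identity of the sort was checked with 8 endothelial markers (Pecam1, Cdh5, Tek, Tie1, Erg, Emcn, Egfl7 and Ptprb), whose summed level was 13920 to 15580 CPM (counts relative to the TMM-scaled library total) in CTRL and 13030 to 13480 CPM in RbpjΔEC. B-cell and T-cell markers summed to less than 1 CPM in every library, and Cd3e and Cd3d had no counts. CTRL 1 stood apart with 33764 genes with at least 1 count, against 25629 to 26785 in the other libraries. RbpjΔEC 3 stood apart within its group, with the highest summed tubule markers of all libraries (454 CPM). Rbpj itself was at 28.1, 29.7 and 29.8 CPM in CTRL and 28.9, 26.1 and 29.6 CPM in RbpjΔEC (log2 fold change -0.05, edgeR adjusted p = 0.793). The counts cover the whole gene, and the floxed part and the extent of deletion were not tested here. The study itself reports recombination of the Rbpj locus and lower Hey1 in RbpjΔEC mice. Hey1, a direct Notch target, was at 16.7, 19.9 and 22.6 CPM in CTRL and 11.5, 8.92 and 14.6 CPM in RbpjΔEC, without overlap and with an adjusted p of 0.0722.

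The sequence upstream of 4 of the genes is shown because the deleted factor binds DNA: both receptor genes, the most abundant ligand gene and the ligand gene whose groups did not overlap. The window of Nrp1 is not shown because it lies within annotated transcript sequence. Each is the 250 bases before a transcription start annotated by RefSeq on GRCm38.p6, written 5′ to 3′ on the strand of the gene. Capitals mark the core letters of the RBPJ binding sequence, TGGGAA, or their reverse complement TTCCCA, searched on both strands. The windows lie at chr5:75978456-75978705 (minus strand) for Kdr, chr5:147726012-147726261 (minus strand) for Flt1, chr17:46032378-46032627 (minus strand) for Vegfa and chr8:54077282-54077531 (plus strand) for Vegfc.
Kdr: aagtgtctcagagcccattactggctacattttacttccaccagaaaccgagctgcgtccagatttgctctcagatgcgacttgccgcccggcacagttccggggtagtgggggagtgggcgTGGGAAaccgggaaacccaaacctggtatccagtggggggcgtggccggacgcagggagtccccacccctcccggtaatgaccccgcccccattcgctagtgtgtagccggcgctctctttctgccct
Flt1: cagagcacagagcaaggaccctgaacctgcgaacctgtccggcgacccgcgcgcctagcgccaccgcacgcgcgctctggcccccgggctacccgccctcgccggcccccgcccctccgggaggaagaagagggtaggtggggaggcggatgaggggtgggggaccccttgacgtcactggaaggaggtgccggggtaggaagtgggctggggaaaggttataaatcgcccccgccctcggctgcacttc
Vegfa: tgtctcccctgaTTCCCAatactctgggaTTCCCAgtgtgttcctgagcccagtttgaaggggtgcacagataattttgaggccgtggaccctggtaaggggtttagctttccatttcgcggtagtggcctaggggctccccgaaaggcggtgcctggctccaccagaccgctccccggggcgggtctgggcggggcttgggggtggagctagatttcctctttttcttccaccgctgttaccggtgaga
Vegfc: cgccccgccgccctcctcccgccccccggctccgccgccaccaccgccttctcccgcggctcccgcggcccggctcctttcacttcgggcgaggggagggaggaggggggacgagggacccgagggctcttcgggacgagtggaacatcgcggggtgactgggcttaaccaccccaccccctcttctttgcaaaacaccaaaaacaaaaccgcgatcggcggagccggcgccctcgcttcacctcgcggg

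The Kdr window held 1 match, at -128 to -123 from the start, and the Vegfa window held 2 matches on the other strand, at -238 to -233 and -221 to -216. The Flt1 and Vegfc windows held none. The windows of the other members, Vegfb, Pgf, Nrp1 and Nrp2, were searched in the same way and also held none. The same letters occurred in 21.6% of 32851 upstream windows of this length, and they also form part of NF-κB binding sequences, so a match here is a description of the letters alone. The core of the hypoxia response element, ACGTG or CACGT, was in none of the 4 windows shown and in 16.6% of all windows. A second Vegfa start given by RefSeq lies within the gene, and its window, at chr17:46025164-46025413 and not shown because it holds coding exon, had the hypoxia core at -211 to -207 and the RBPJ core at -87 to -82 and -12 to -7.

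The comparison of genotypes asked whether endothelial loss of Rbpj changed the level of these genes. No member passed the threshold of the test across all genes (edgeR quasi-likelihood test, Benjamini-Hochberg adjusted p under 0.05), a threshold met by 1.13% of tested genes, with 0.559% lower and 0.575% higher in RbpjΔEC. Genes past it are termed called. At an unadjusted p under 0.05, 5 of the 8 were lower and 0 were higher (Vegfa, Vegfc, Flt1, Kdr and Nrp1), against 17.5% of all tested genes in either direction, 8.62% lower and 8.88% higher. In 4 of the 8 (Vegfc, Flt1, Kdr and Nrp1) every RbpjΔEC library lay below every CTRL library. Such separation was seen in 23.0% of all tested genes, in 11.6% with RbpjΔEC lower and in 11.4% with RbpjΔEC higher. The same 4 genes passed the DESeq2 Wald test, with adjusted p-values of 0.0160 for Vegfc, 0.0151 for Kdr, 0.0249 for Nrp1 and 0.0498 for Flt1. DESeq2 called 1.52% of the 38324 genes it tested, 0.84% lower and 0.684% higher. limma voom called none of the members, with adjusted p-values of 0.0542 to 0.0773 for these 4. The median log2 fold change of the 8 members was -0.27, with 7 below 0 and 1 above, against a median of 0.01 over all tested genes, of which 48.9% were below 0.

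**Figure D1:**
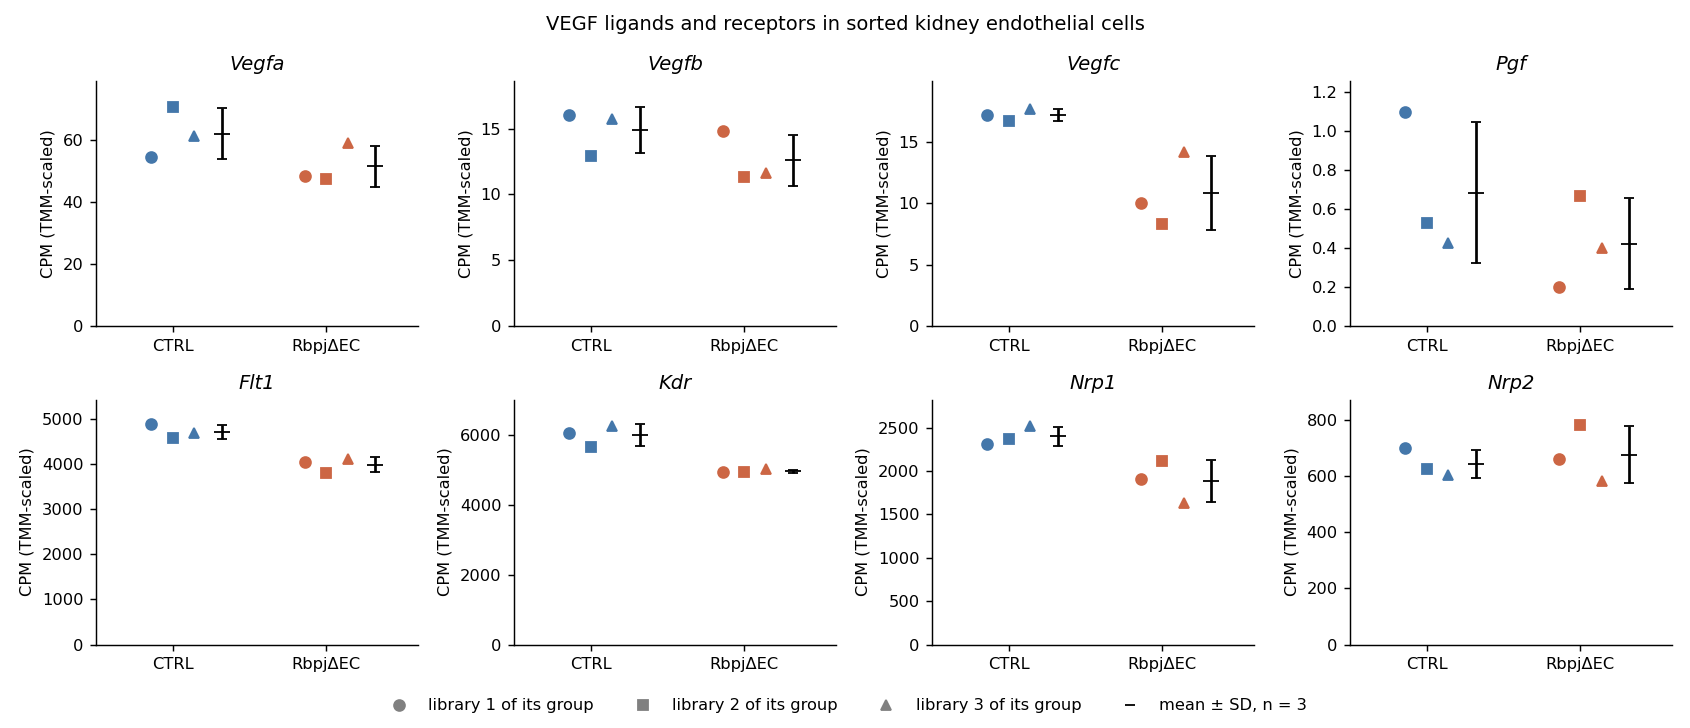
CPM of each of the 8 genes (vertical axes, TMM-scaled, starting at 0) in CTRL (blue) and RbpjΔEC (orange). Each point is 1 library, with its shape giving its number within the group, and the black bar is the mean ± SD of 3 libraries. The groups were separate for Vegfc, Flt1, Kdr and Nrp1 and overlapped for the other genes.

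Among the ligands, Vegfc showed the widest separation of genotypes. Its product drives growth of lymphatic vessels through FLT4 and can act on blood vessels through KDR. Vegfc (ENSMUSG00000031520.6, GRCm38 chr8:54077606-54187096, plus strand) was at 17.2, 16.7 and 17.6 CPM in CTRL and 10.0, 8.34 and 14.2 CPM in RbpjΔEC, from 689, 791 and 745 counts and 449, 350 and 569 counts. The 3 CTRL libraries lay close together, and the RbpjΔEC libraries were spread below them, RbpjΔEC 3 being the nearest to CTRL. The means were 17.2 ± 0.465 and 10.9 ± 3.02 CPM (SD, n = 3 each), a log2 fold change of -0.66 (SE 0.169, 95% interval -1.04 to -0.29) or -36.9%, with an edgeR adjusted p of 0.0858. Without RbpjΔEC 3 the log2 fold change was -0.90 (edgeR adjusted p = 0.00553), and without any single other library it lay between -0.69 and -0.51 and did not pass. Of all 19091 genes tested without RbpjΔEC 3, 333 were called lower, against 103 of 18438 with all 6 libraries. With any single other library left out, 13 to 299 genes were called lower.

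Vegfa was the most abundant ligand transcript in these EC. Vegfa (ENSMUSG00000023951.18, chr17:46016993-46032369, minus strand) was at 54.5, 70.7 and 61.4 CPM in CTRL and 48.3, 47.4 and 59.2 CPM in RbpjΔEC. The groups overlapped, since RbpjΔEC 3 exceeded CTRL 1. The means were 62.2 ± 8.12 and 51.7 ± 6.57 CPM, with a log2 fold change of -0.27 (SE 0.112, 95% interval -0.52 to -0.02, adjusted p = 0.244). Markers of the cells known to make VEGF-A did not lie in one direction. The podocyte gene Nphs1 was at 1.67, 1.39 and 2.98 CPM in CTRL and 0.691, 0.334 and 2.42 CPM in RbpjΔEC, but of the 6 podocyte markers 4 had lower and 2 higher values (Synpo 0.07 and Cdkn1c 0.09 on the log2 scale), none was called, and Podxl was lowest in RbpjΔEC 3. The 9 tubule markers summed to 444, 301 and 315 CPM in CTRL and 171, 126 and 454 CPM in RbpjΔEC, so that within RbpjΔEC Nphs1, the tubule sum and Vegfa were highest in library 3, while within CTRL library 2 had the highest Vegfa and the lowest tubule sum. That sum joined 4 proximal tubule genes with higher values, Lrp2 (log2 fold change 1.27), Slc34a1 (1.28), Miox (1.22) and Kap (0.99), to 5 genes with lower values, Umod (-1.19), Slc12a1 (-1.25), Slc12a3 (-1.79), Aqp2 (-2.77) and Cdh16 (-1.10), none of them called. The part of such cells in the Vegfa values was not tested.

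Vegfb, whose product binds FLT1 and is linked to fatty acid uptake by endothelium, showed no difference beyond the spread of the libraries. Vegfb (ENSMUSG00000024962.13, chr19:6982473-6987651, minus strand) was at 16.0, 12.9 and 15.7 CPM in CTRL and 14.8, 11.3 and 11.6 CPM in RbpjΔEC, with overlap. Its log2 fold change was -0.24 (SE 0.137, 95% interval -0.54 to 0.06, adjusted p = 0.392). Pgf, which encodes placental growth factor, was close to the limit of detection. Pgf (ENSMUSG00000004791.7, chr12:85166635-85177790, minus strand) had 44, 25 and 18 counts in CTRL and 9, 28 and 16 counts in RbpjΔEC, or 0.684 ± 0.362 and 0.423 ± 0.234 CPM. Its interval ran from -1.89 to 0.51 on the log2 scale, and the groups overlapped. Added together, the ligand transcripts were at 88.8, 100.8 and 95.2 CPM in CTRL and 73.4, 67.8 and 85.5 CPM in RbpjΔEC. Vegfa made up 61.4% to 70.1% of ligand counts in CTRL and 65.9% to 70.0% in RbpjΔEC, and Vegfc made up 16.6% to 19.3% and 12.3% to 16.6%.

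**Figure D2:**
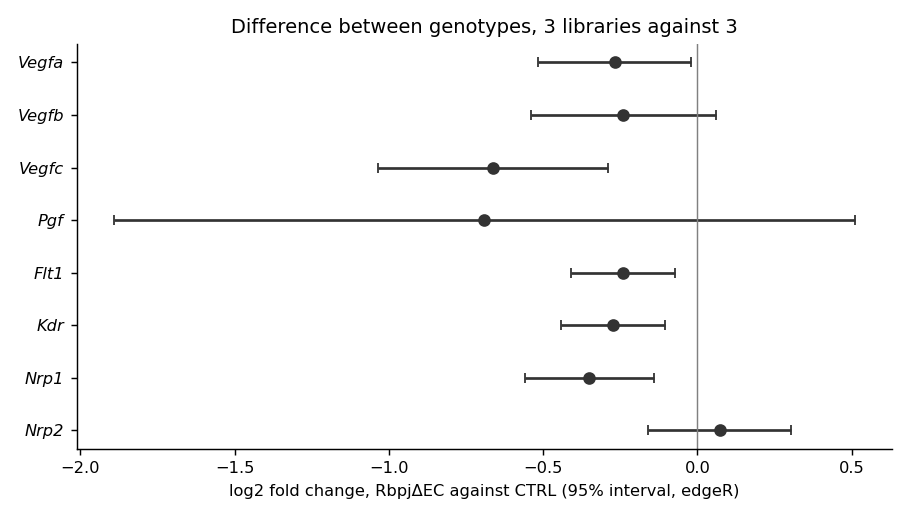
Log2 fold change of each gene, RbpjΔEC against CTRL, from edgeR (horizontal axis), with points for the estimate and bars for the 95% interval from 3 libraries per group. The intervals of Vegfa, Vegfc, Flt1, Kdr and Nrp1 lay below 0, those of Vegfb, Pgf and Nrp2 crossed 0, and none of the 8 passed the adjusted threshold.

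Both receptor genes were among the most abundant transcripts of these EC and had lower values in every RbpjΔEC library. Kdr (ENSMUSG00000062960.10, chr5:75932827-75978458, minus strand), the main signalling receptor for VEGF-A, was at 6062, 5658 and 6261 CPM in CTRL and 4945, 4924 and 5009 CPM in RbpjΔEC. The RbpjΔEC libraries lay close together, and all were below the lowest CTRL library. The means were 5994 ± 308 and 4960 ± 44.3 CPM, a log2 fold change of -0.27 (SE 0.0778, 95% interval -0.44 to -0.10) or -17.3%, with an edgeR adjusted p of 0.106. Flt1 (ENSMUSG00000029648.13, chr5:147561604-147726011, minus strand) was at 4886, 4572 and 4682 CPM in CTRL and 4054, 3804 and 4107 CPM in RbpjΔEC, again without overlap. Its means were 4713 ± 159 and 3988 ± 162 CPM, a log2 fold change of -0.24 (SE 0.0768, 95% interval -0.41 to -0.07) or -15.4%, with an edgeR adjusted p of 0.137. Flt1 also gives rise to a soluble form without the kinase, and counts per gene do not separate it from the full-length receptor.

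The ratio of the 2 receptor transcripts overlapped between genotypes. Flt1 to Kdr count ratios were 0.806, 0.808 and 0.748 in CTRL and 0.820, 0.773 and 0.820 in RbpjΔEC, a difference of 0.03 on the log2 scale (two-sided exact permutation p = 0.5, where 3 against 3 libraries allow no p below 0.1). By CPM, Kdr ranked between 5 and 7 and Flt1 between 9 and 13 among all genes in every library. Lower values were common among genes of this abundance. Of 80 tested genes with a mean of at least 1000 CPM, 61 had a log2 fold change below 0, their median was -0.15, 38.8% lay without overlap below CTRL, and 0% (0 of 80) passed the edgeR adjusted threshold as lower, with 28 lower at an unadjusted p under 0.05. Of the 8 endothelial markers 6 had values below 0 and none was called, with a median log2 fold change of -0.16, 2 lower (Emcn and Ptprb) and 1 higher (Egfl7) at an unadjusted p under 0.05. Ptprb was the most abundant of them, at a mean of 5258 CPM in CTRL and 4418 CPM in RbpjΔEC, and so weighs most in their sum. Ptprb and Cdh5 also belong to the list of receptor partners read below. Taken relative to the summed endothelial markers of the same library, Kdr was at 0.393, 0.407 and 0.402 in CTRL and 0.370, 0.365 and 0.385 in RbpjΔEC, a log2 difference of -0.10 without overlap (two-sided exact permutation p = 0.1, the smallest possible). Flt1 relative to the same sum differed by -0.07 on the log2 scale with overlap (p = 0.4, exact permutation test). In bulk samples such as these, fewer cells of a type and less RNA per cell cannot be told apart.

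The neuropilins, which share their domain layout, differed from each other in how their values lay between genotypes. Nrp1 (ENSMUSG00000025810.9, chr8:128358604-128503363, plus strand), the co-receptor associated with arterial and capillary EC, was at 2310, 2369 and 2523 CPM in CTRL and 1905, 2112 and 1633 CPM in RbpjΔEC. Every RbpjΔEC library was below CTRL, RbpjΔEC 3 the furthest. The means were 2401 ± 110 and 1884 ± 240 CPM, a log2 fold change of -0.35 (SE 0.0957, 95% interval -0.56 to -0.14) or -21.5%, with an edgeR adjusted p of 0.0975. Nrp2 (ENSMUSG00000025969.15, chr1:62703285-62818695, plus strand), associated with venous and lymphatic EC, was at 699, 622 and 603 CPM in CTRL and 661, 782 and 582 CPM in RbpjΔEC. These values overlapped fully, with both the highest and the lowest library in RbpjΔEC, and the log2 fold change was 0.07 (SE 0.105, 95% interval -0.16 to 0.30, adjusted p = 0.760).

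Within each library, Nrp1 counts exceeded Nrp2 counts by a smaller factor in RbpjΔEC. The Nrp1 to Nrp2 ratio was 3.31, 3.81 and 4.18 in CTRL and 2.88, 2.70 and 2.81 in RbpjΔEC, with no overlap and the RbpjΔEC libraries lying close together. The means were 3.76 ± 0.440 and 2.80 ± 0.0896, a difference of -0.42 on the log2 scale that lay between -0.51 and -0.34 when any single library was left out. The two-sided exact permutation p was 0.1, the smallest that this design can give. The Vegfc to Vegfa count ratio was 0.315, 0.236 and 0.287 in CTRL and 0.207, 0.176 and 0.240 in RbpjΔEC, and here RbpjΔEC 3 exceeded CTRL 2. Its log2 difference was -0.43, with a two-sided exact permutation p of 0.2. Relative to the summed endothelial markers, Vegfc differed by -0.53 on the log2 scale without overlap (p = 0.1, exact permutation test), or by -0.35 without RbpjΔEC 2 and -0.75 without RbpjΔEC 3, while Nrp1 (-0.19, p = 0.2), Nrp2 (0.24, p = 0.3), Vegfa (-0.10, p = 0.6), Vegfb (-0.07, p = 0.6) and Pgf (-0.56, p = 0.5) overlapped in the same test. These 11 ratios were not adjusted for their number, and no adjusted value could fall under 0.05.

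**Figure D3:**
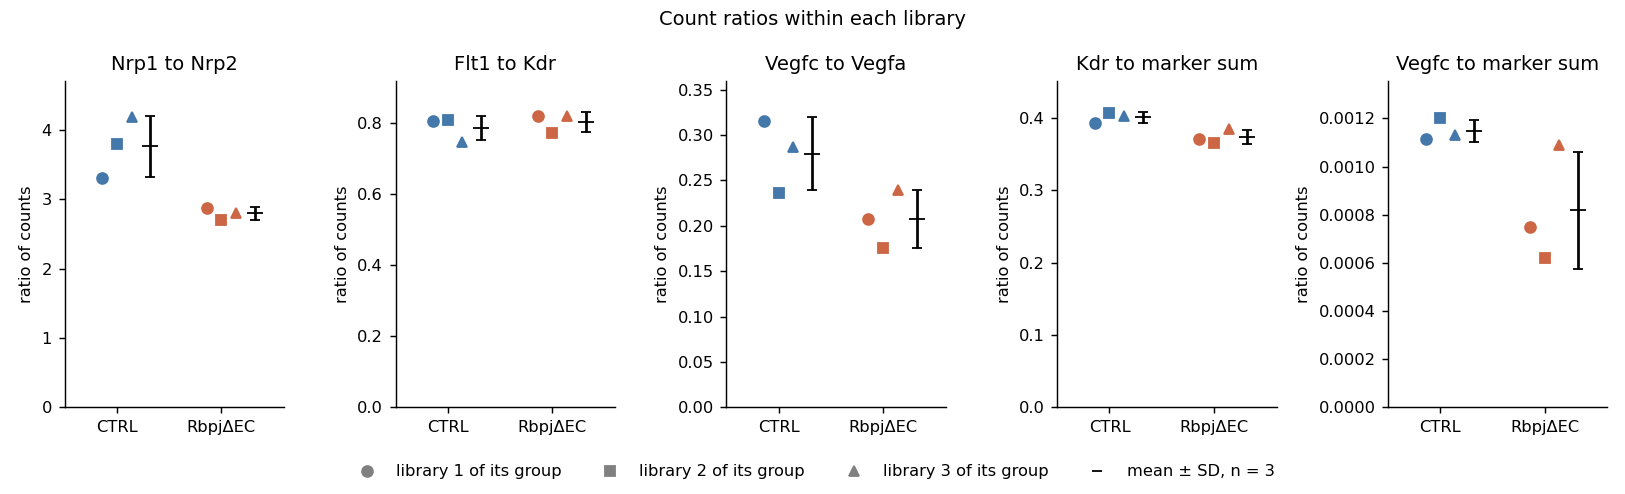
Count ratios within each library (vertical axes, starting at 0) for Nrp1 to Nrp2, Flt1 to Kdr and Vegfc to Vegfa, and for Kdr and Vegfc relative to the sum of 8 endothelial markers. Points are libraries, shapes give the library number and black bars the mean ± SD of 3 libraries. The Nrp1 to Nrp2 ratio was 3.31 or more in CTRL and 2.88 or less in RbpjΔEC, whereas the Flt1 to Kdr ratio overlapped.

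Levels of different genes were compared per length, as CPM divided by the kilobases of merged annotated exons. In CTRL, Kdr was at 664 ± 34.1, Flt1 at 349 ± 11.8, Nrp1 at 245 ± 11.2 and Nrp2 at 54.2 ± 4.27 CPM per kb. The ligands followed, with Vegfa at 14.5 ± 1.90, Vegfb at 9.28 ± 1.08, Vegfc at 7.01 ± 0.190 and Pgf at 0.236 ± 0.125 CPM per kb. Receptors and co-receptors were therefore all above every ligand. In RbpjΔEC the levels were 549 ± 4.90 for Kdr, 295 ± 12.0 for Flt1, 192 ± 24.6 for Nrp1, 57.0 ± 8.50 for Nrp2, 12.1 ± 1.53 for Vegfa, 7.85 ± 1.21 for Vegfb, 4.43 ± 1.23 for Vegfc and 0.146 ± 0.0807 CPM per kb for Pgf. The order was the same in all 6 libraries, and within each genotype no neighbours in it overlapped. With the longest annotated coding transcript as the length, Nrp1 (667 ± 30.5 CPM per kb in CTRL) and Flt1 (684 ± 23.1) could no longer be ordered, and the places of the other genes held. Between 3 and 13 transcripts are annotated per gene, and which of them the counts came from is not known.

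**Figure D4:**
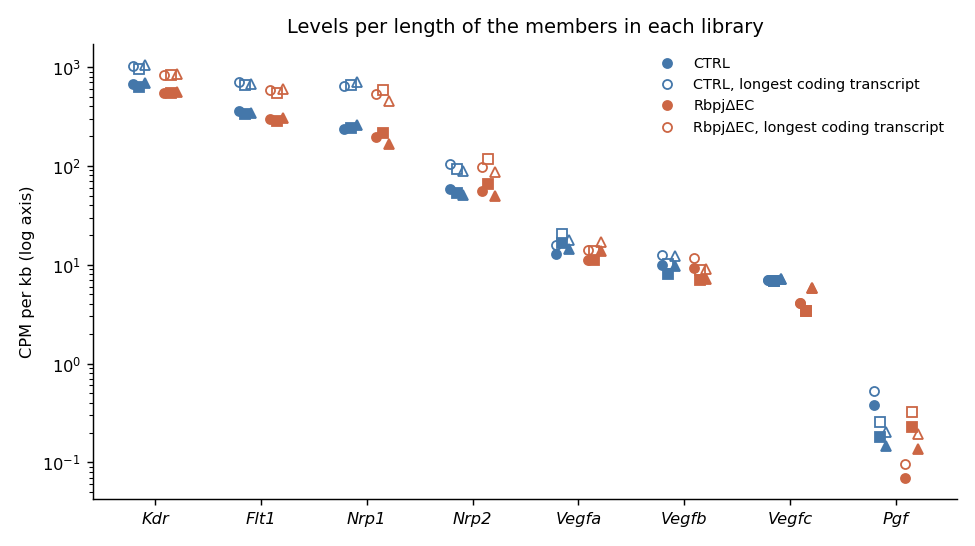
Level of each gene in each library as CPM per kb (log axis), in CTRL (blue) and RbpjΔEC (orange). Filled points use merged exons as the length and open points the longest coding transcript, and in both the receptors and co-receptors lay above the ligands.

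Other genes of the system were read from lists chosen by their known roles, 89 genes in all, of which 87 were tested. Of these 2 were called lower and 1 higher, 15 and 9 passed at an unadjusted p under 0.05, and the median log2 fold change was -0.05. Over all tested genes 0.559% were called lower and 0.575% higher, and 8.62% and 8.88% passed at an unadjusted p under 0.05. The 3 calls (Pcsk5, Prkca and Egr3) were lost without CTRL 3, RbpjΔEC 1 or RbpjΔEC 2, when 0 of the 87 genes were called, and 6 were called without CTRL 2, 5 without RbpjΔEC 3 and 8 by DESeq2. Over all genes, calls lower and higher were 17 and 7 without CTRL 3, 13 and 8 without RbpjΔEC 1, and 30 and 18 without RbpjΔEC 2. They were 299 and 401 without CTRL 2, 333 and 188 without RbpjΔEC 3, and 322 and 262 by DESeq2. FLT4 and VEGF-D complete the family. Flt4, the main receptor for VEGF-C, was at 634 ± 43.6 CPM in CTRL and 640 ± 17.9 CPM in RbpjΔEC (log2 fold change 0.01, adjusted p = 0.942), and Vegfd was at 1.28 and 1.37 CPM. VEGF-C is cleaved by proprotein convertases before it binds KDR. Pcsk5, one of these, was called lower, at 78.6, 88.7 and 98.8 CPM in CTRL and 62.5, 56.1 and 65.6 CPM in RbpjΔEC (log2 fold change -0.53, edgeR adjusted p = 0.0239). Furin, another, had a log2 fold change of -0.18 (adjusted p = 0.165), and none of the other 2 tested genes of this list passed.

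Of 9 genes of oxygen sensing, which control Vegfa, Flt1 and Kdr in hypoxia, none was called. Epas1, the HIF subunit abundant in EC, had a log2 fold change of -0.28 (adjusted p = 0.138), and Hif1a one of -0.12 (adjusted p = 0.410). Among 7 receptor partners and phosphatases, 6 had values below 0, none was called and the median was -0.25. The phosphatase genes Ptprj (-0.62, adjusted p = 0.146) and Ptprb (-0.25, adjusted p = 0.155) led this list. None of 11 genes of receptor traffic was called, with 5 lower at an unadjusted p under 0.05, as were 8.62% of all tested genes. Numb (-0.27, adjusted p = 0.0622) and the caveolin gene Cav1 (-0.33, adjusted p = 0.0820) led this list. Among 12 genes of class 3 semaphorins and plexins, which share the neuropilins, none was called. Sema3g, a semaphorin of arterial EC, had a log2 fold change of -0.51 (adjusted p = 0.184) and Sema3b one of 0.59 (adjusted p = 0.302).

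Downstream of KDR, 28 signal transducers were tested, 1 was called, and an unadjusted p under 0.05 was reached by 4 with lower and 4 with higher values. Over all tested genes it was reached by 8.62% with lower and 8.88% with higher values. Prkca, a protein kinase C on the path from KDR to ERK, was at 19.3, 20.5 and 21.3 CPM in CTRL and 13.8, 11.8 and 13.7 CPM in RbpjΔEC (log2 fold change -0.64, edgeR adjusted p = 0.0191). Of 14 genes that VEGF is known to induce or that feed back on it, 10 had values above 0, 5 were higher and none lower at an unadjusted p under 0.05, and the median was 0.19. Only Egr3, an early transcription factor, was called in this list, at 10.5, 17.1 and 11.0 CPM in CTRL and 25.7, 26.4 and 25.1 CPM in RbpjΔEC (log2 fold change 0.99, edgeR adjusted p = 0.0326). Beside Egr3, genes that respond to tissue handling as well as to growth factors had higher values, in 10 of 10 immediate-early genes, 6 of them called (Egr1, Btg2, Atf3, Fos, Junb and Ier2), with a median of 0.49. The part of handling in these values was not tested.

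**Figure D5:**
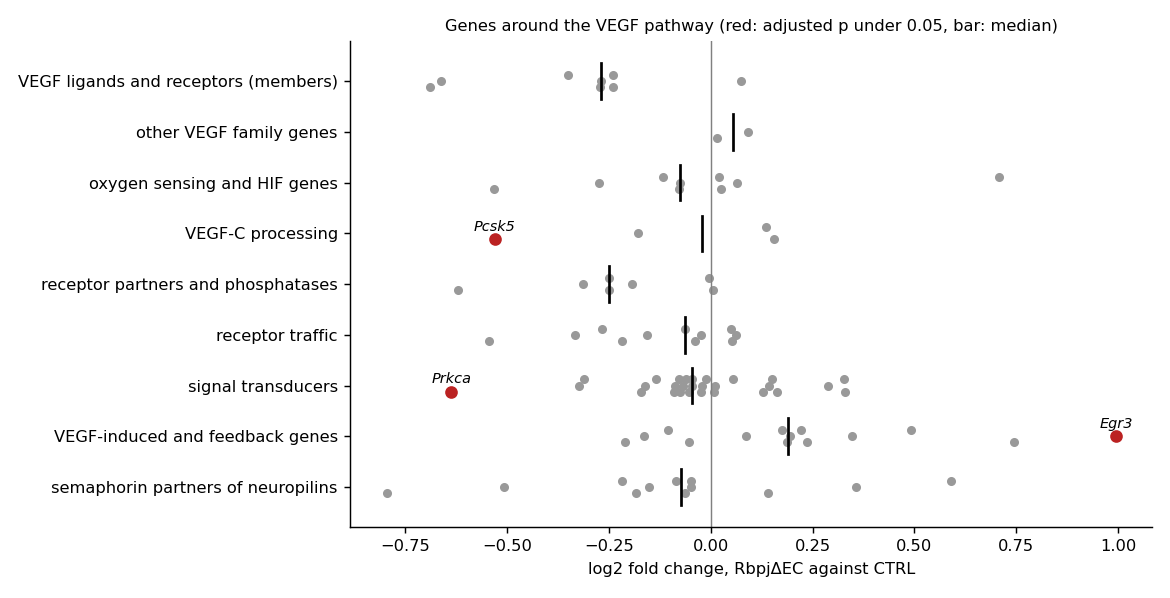
Log2 fold change, RbpjΔEC against CTRL (horizontal axis), of the 8 members and of the tested genes of 8 lists around the VEGF system. Each point is 1 gene, black bars are list medians, and the 3 genes in red (Pcsk5, Prkca and Egr3) had an edgeR adjusted p under 0.05.

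Markers of other cells and of EC subtypes were read beside the members. Of 6 glomerular EC markers all were lower and 3 were called (Tspan7, Gata5 and Lpl), their sum being 1250 to 1491 CPM in CTRL and 862 to 1089 CPM in RbpjΔEC, and their median was -0.69 on the log2 scale. Arterial EC markers were lower in 7 of 8, with 1 called (Fbln5), a median of -0.59 and sums of 1836 to 2009 CPM against 1488 to 1628 CPM. Both sums lay apart between genotypes as Kdr, Flt1, Nrp1 and Vegfc did, and their part in the values of these 4 genes was not tested. Of 5 tested venous markers 1 was called lower (Vwf), and none of 4 tested lymphatic EC markers was called, with 2 lower at an unadjusted p under 0.05. These were Ccl21a, at 2.54, 1.54 and 3.08 CPM in CTRL and 0.781, 1.17 and 0.624 CPM in RbpjΔEC (log2 fold change -1.47, edgeR adjusted p = 0.0703), and Lyve1, at 0.923, 1.39 and 1.42 CPM and 0.558, 0.310 and 0.774 CPM (-1.19, adjusted p = 0.162), both without overlap as for Vegfc. Prox1 lay without overlap in the other direction, at 7.88 to 9.73 CPM in CTRL and 9.83 to 10.7 CPM in RbpjΔEC (0.17, adjusted p = 0.542), and the part of lymphatic EC in the Vegfc values was not tested. Mural cell markers were lower in 9 of 9 with 3 called (Acta2, Myh11 and Rgs5), summing to 89.1 to 114 CPM in CTRL and 36.2 to 58.4 CPM in RbpjΔEC. The fibroblast list, with 1 of 3 tested genes called lower (Pdgfra), summed to 4.63 to 7.08 CPM and 1.54 to 2.92 CPM. Of 5 tested macrophage markers 4 had lower values, with a median log2 fold change of -0.21 and none of these called. Only Cd68 was higher, and it was called (1.27, at 9.97 ± 2.71 and 24.1 ± 1.70 CPM), while Csf1r (-1.57, edgeR adjusted p = 0.134) and Lyz2 (-1.25, adjusted p = 0.321) were low in both groups. The higher macrophage sum, 31.4 to 35.9 CPM against 22.2 to 24.2 CPM, was therefore that of Cd68. No gene of the podocyte and tubule lists was called, and Podxl, which EC also express, made up nearly all of the podocyte sum. The CD31+CD45- gate would remove macrophages and other leukocytes, and the part of any of these cells in the values of the members was not tested.

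For the 3 members with the smallest p-values, the genes outside the group with the most similar profile over the 6 libraries were identified by the root-mean-square difference of centred log2 CPM among 10435 candidates of at least 5 CPM. Kdr was closest to Park7 (0.0165) and Tbrg1 (0.0182), Nrp1 to Mrps34 (0.0238) and Gltp (0.0318), and Vegfc to Galm (0.0848) and Plcl1 (0.0913). With 6 libraries in 2 groups, many profiles are alike, and this likeness is a description.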

How the data were processed

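RNA of sorted kidney EC was made into libraries from total RNA with a stranded low-input kit, and per the labels and methods the authors trimmed reads with Trim Galore 0.6.4, aligned them with STAR 2.6.1d to GRCm38.p6 and counted them over GENCODE M25 genes with featureCounts (Subread 1.6.4) in nf-core/rnaseq 1.4.2. The deposited values are raw counts per gene. The strand setting of counting is not given in the sources used here. No annotated antisense exon overlaps the members. Reads without molecular identifiers are not independent molecules. The study terms the 3 libraries of a group biological replicates.

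Counts were scaled by TMM, filtered with filterByExpr and tested with edgeR 4.0.16 (quasi-likelihood, genotype only) in R 4.3.3, with adjustment over 18438 genes. SEs were derived from the fold change and F statistic. Fold changes are RbpjΔEC over CTRL. Positions and lengths came from GENCODE M21 (GRCm38), an earlier release than the one counted. A floor of 3 counts was 0.0634 to 0.0749 CPM. Alternatives included DESeq2 1.42.0 (no independent filtering) and limma voom 3.58.1, other scalings and filters, a replicate block and leaving out each library. Scaling without the members, ratios to the endothelial marker sum, transcript lengths and the background of abundant genes were added after seeing the data. Named pathway genes were those called in each list, or else those with the smallest p, to 2 per list, and the like profiles were taken for the 3 members with the smallest p. The members and lists were chosen with earlier results of these data known. Scripts were tested on simulated data. One marker gene is not reported here.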

Additional observations from a re-analysis of the deposited data

How the results depend on the processing

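The log2 fold changes of the members kept their direction under the alternatives run except that of Nrp2, which was -0.05 without RbpjΔEC 2. Pgf was not tested with at least 1 CPM in 3 libraries, which left 7 members. The ratios of Flt1 to Kdr and of Vegfa and Vegfb to the marker sum lay on both sides of 0 when single libraries were left out. No member was called by the filtered, unblocked edgeR test on all 6 libraries, and 4 were called by edgeR without a low-count filter (log2 fold changes of -0.657 for Vegfc, -0.233 for Flt1, -0.266 for Kdr and -0.343 for Nrp1) and 4 by DESeq2 (-0.667, -0.243, -0.276 and -0.352). Of all 38324 genes tested without the filter, 719 were called lower and 717 higher. DESeq2 called 322 lower and 262 higher of 38324, and the main test 103 and 106 of 18438. Replicate numbers did not pair the libraries (correlations of deviations 0.121, -0.139 and 0.000163), and with a replicate block 1 member was called, Vegfc (-0.695, edgeR adjusted p = 0.0388), as were 5 pathway genes. Pathway genes called numbered 3, against 8 by DESeq2.

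Leaving out 1 library at a time gave 0 to 1 members and 0 to 6 pathway genes called, with 0 pathway genes without CTRL 3, RbpjΔEC 1 or RbpjΔEC 2, 5 without RbpjΔEC 3 and 6 without CTRL 2. Over all genes, calls lower and higher were 37 and 17 without CTRL 1, 299 and 401 without CTRL 2, and 17 and 7 without CTRL 3. They were 13 and 8 without RbpjΔEC 1, 30 and 18 without RbpjΔEC 2, and 333 and 188 without RbpjΔEC 3. With 1 library left out, the log2 fold changes ranged from -0.903 to -0.506 for Vegfc, -0.269 to -0.207 for Flt1, -0.320 to -0.243 for Kdr, -0.440 to -0.257 for Nrp1, -0.378 to -0.173 for Vegfa, -0.374 to -0.169 for Vegfb, -1.18 to -0.183 for Pgf and -0.0453 to 0.170 for Nrp2. Relative to the marker sum, Nrp1 ranged from -0.262 to -0.101, Nrp2 from 0.135 to 0.324, Flt1 from -0.106 to -0.0259 and Pgf from -0.967 to -0.106. With library size alone as the scaling, 82 genes were called lower and 159 higher, against 103 and 106, and the median of all genes was 0.05. Without a filter 719 and 717 of 38324 tested genes were called, and with the block 178 and 166 of 18438. With the longest transcript as the length, CTRL levels were 18.0 for Vegfa, 11.6 for Vegfb, 684 for Flt1, 1010 for Kdr, 667 for Nrp1 and 95.4 CPM per kb for Nrp2. The causes were not tested.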
